A study of Homo sapiens with 4 samples.

Results

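The NODAL and activin pathway was followed through 10 genes, each looked up by name in a map of m6A (adenosine methylated at its N6 position, the most common internal mark of mRNA) in human embryonic stem cells. They were the ligands NODAL and GDF3, the secreted inhibitors LEFTY1 and LEFTY2, the type I receptors ACVR1B and ACVR1C, the type II receptors ACVR2A and ACVR2B, the DNA-binding partner FOXH1 and the signal transducer SMAD2. A region was taken for a gene when the deposited annotation placed its centre in a transcript of that gene, when the gene had the nearest annotated start site, or when the region overlapped the gene body. By this rule 8 of the 9900 deposited regions belonged to 6 of the 10 genes. Over 20037 protein-coding genes, the same rule gave 36.1% a region.

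The cells were wild-type H1, an established human embryonic stem cell line, with no knockout, overexpression or treatment named for these libraries. RNA was pulled down with an m6A antibody in 2 libraries, and 2 libraries held input RNA. The deposited result was 1 intersected set of MACS2 peaks on hg38, with no library named in it. It held no RNA level and no value per library, and no height or count was used here. Depth was thus unknown, and no replicate error could be given. A gene without a region is therefore not shown to lack m6A, and a region does not say how much of the RNA carried it. Of 8 marker genes of embryonic stem cells, SOX2, SALL4, L1TD1 and ZFP42 held a region centred in an exon, and POU5F1, LIN28A and DPPA4 held none. NANOG met a region of 100260 bp that was centred in SLC2A14. With NANOG counted, 62.5% of the markers met some region over the gene body, beside 30.2% of all protein-coding genes.

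NODAL, GDF3 and activin are ligands of the transforming growth factor beta family. They bind type II receptors, which activate type I receptors, and these phosphorylate SMAD2 and SMAD3. The phosphorylated SMADs enter the nucleus with SMAD4 and act there with partners such as FOXH1. LEFTY proteins are induced by the pathway and block it from outside the cell. In human embryonic stem cells this signal helps to maintain primed pluripotency. m6A is added to RNA by a methyltransferase complex, mostly toward the 3' end of mRNAs, and proteins that read it can change how long an mRNA lasts.

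Among the 10 genes, GDF3, LEFTY1, ACVR1B and ACVR2B each held 1 region centred in an exon, NODAL and ACVR2A each held 1 region centred in an intron, and LEFTY2, ACVR1C, FOXH1 and SMAD2 held none. An exonic region was thus present in 4 of 10 genes (40.0%, 95% exact binomial interval 12.2 to 73.8%), beside 12.8% of all protein-coding genes. A region anywhere over the gene body was present in 6 of 10 genes (60.0%, interval 26.2 to 87.8%), beside 30.2% of all protein-coding genes. The intervals would hold for a random draw of genes. The 10 genes were instead chosen with earlier results of these data known, so the shares describe these genes alone. No test was made on these counts. All 6 regions over the gene bodies lay in the final 50% of the gene, counted from its 5' boundary, as did 60.8% of 6375 regions in other genes. These 6375 were the regions centred in a single protein-coding gene whose strand the RefSeq promoter table gives. LEFTY1 has no entry there and was kept by the strand that the annotation implies.

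**Figure D1:**
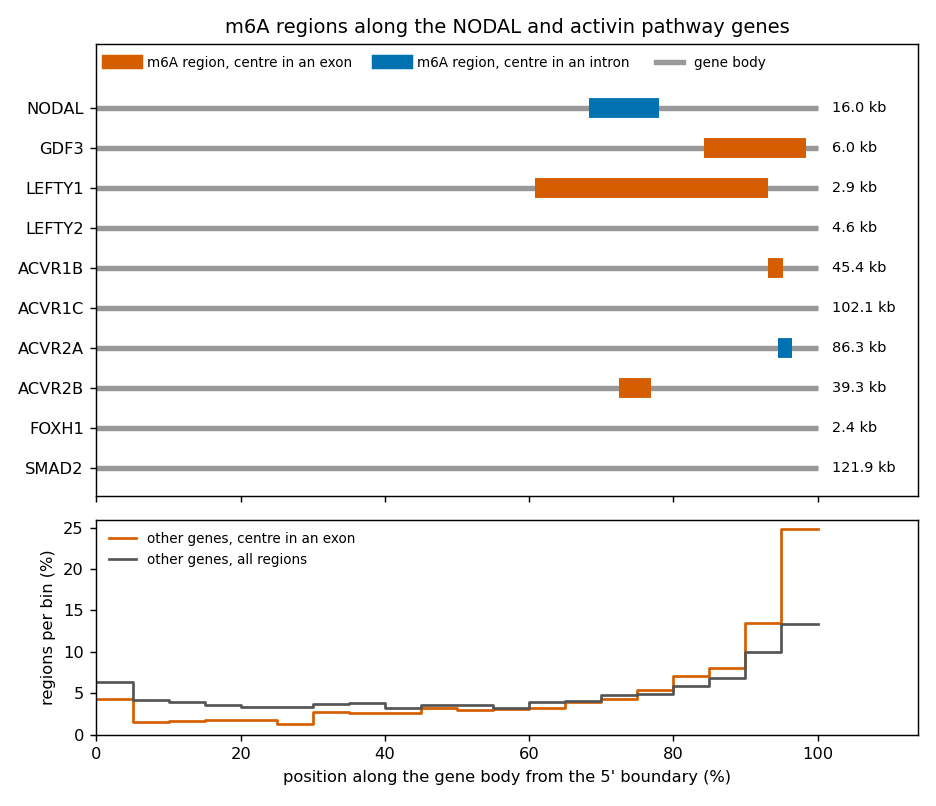
Upper panel, position of m6A regions along each of the 10 genes, as a percentage of the gene body from its 5' boundary, with the gene body length at the right; orange marks a region centred in an exon, blue one centred in an intron. Lower panel, share of region centres per 5% of the gene body in other protein-coding genes (2212 exonic centres and 6375 in all); the 6 regions of the pathway genes were centred between 73.2 and 95.4% of the gene body, where the curves of other genes also rise.

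NODAL, the ligand that gives the pathway its name, held a region of 1562 bp at chromosome 10, positions 70435455 to 70437016, within a gene body at 70431936 to 70447951. The centre was annotated to intron 1 of 2 of the NODAL transcript NM_001329906 and fell in a MIRb repeat, an old short interspersed element. It lay 5446 bp downstream of the NODAL start site at 70441681, and the nearer edge of the region was 3519 bp from the 3' boundary of the gene. The gene table extends NODAL a further 6270 bp upstream of that start site. The centre was therefore at 73.2% of the full gene body, but at 55.9% of the way between that start site and the 3' boundary. In a transcript that begins at that start site, the exon or intron under the centre was not determined here.

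GDF3, a ligand that in mouse signals through the same receptors and is expressed in pluripotent cells, held the narrowest of the 6 regions. It was 846 bp wide, at chromosome 12, positions 7689878 to 7690723, in the last of 2 coding exons (NM_020634), and 6.51% of all regions were narrower. It ended 94 bp short of the 3' boundary of the gene at 7689784. The region covered 14.1% of the 5992 bp gene body.

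The LEFTY genes are neighbouring copies on chromosome 1, with 47456 bp between their gene bodies, and the deposited set placed a region on LEFTY1 and none on LEFTY2. The LEFTY1 region spanned 924 bp, at positions 225886480 to 225887403, in exon 4 of 4 (NM_020997). It covered 32.3% of the 2865 bp gene body, the highest share among the 6 genes with a region, and its nearer edge lay 198 bp from the 3' boundary. LEFTY2 (positions 225936603 to 225941220) was 44024 bp away from its nearest region, which was intronic in SDE2. LEFTY1 and LEFTY2 are closely similar in sequence, and the sources used here do not give how reads that match both were treated. The difference between these paralogs is thus uncertain, and the part of read assignment in it was not tested.

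Of the type I receptors, which carry the kinase that phosphorylates SMAD2, ACVR1B (also called ALK4) held a region and ACVR1C (ALK7) did not. The ACVR1B region was 876 bp wide, at chromosome 12, positions 51994011 to 51994886, in the 3' UTR of exon 9 of 9 (NM_020327). It was the sole region of the 6 that was annotated to a 3' UTR. Its centre was 42749 bp downstream of the ACVR1B start site, and the nearer edge of the region was 2192 bp from the 3' boundary of the gene. ACVR1C (chromosome 2, positions 157526767 to 157628864) spans 102098 bp with no region. The nearest one was 8495 bp away, 2109 bp wide and intergenic, and its centre fell in an L1PA2 element, a young LINE-1 repeat.

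Both type II receptors, the first to bind activin and NODAL, held a region, but the ACVR2B region was exonic and the ACVR2A region intronic. ACVR2B held 1743 bp at chromosome 3, positions 38482316 to 38484058, in exon 11 of 11 (NM_001106), and this was the widest of the 6. It lay 9084 bp from the 3' boundary, farther than any of the other 5 regions. ACVR2A held 1626 bp at chromosome 2, positions 147926054 to 147927679, in the last of 11 introns (NM_001278579). The centre of this region was 81837 bp downstream of the ACVR2A start site, and the nearer edge of the region was 3143 bp from the 3' boundary. Only the centre of a region was annotated, so the exons that its flanks may touch are not given.

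FOXH1, a forkhead factor that recruits SMAD2 complexes to DNA, and SMAD2 itself held no region. FOXH1 has the shortest gene body of the 10 (2438 bp, chromosome 8, positions 144473412 to 144475849), and its nearest region was 20917 bp away. SMAD2 has the longest (121916 bp, chromosome 18, positions 47808957 to 47930872). Its nearest region was 720151 bp away, in an intron of CTIF at an L1PA6 repeat. Among the 13980 protein-coding genes with no region over the gene body, the median gap to the nearest region was 77098.5 bp, and 4.71% had a larger gap than SMAD2. For LEFTY2, ACVR1C and FOXH1 the gap was smaller than that median.

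Naming each region by its nearest start site, as the gene column of the deposited annotation does, gave 5 of the 10 genes a region, beside 26.2% of all protein-coding genes, and differed for the receptors. The exonic ACVR1B region was given to GRASP, whose start site lay 12498 bp away, and the exonic ACVR2B region to EXOG, 13085 bp away. ACVR2B was instead named for 2 other regions, which lay 37704 and 45247 bp outside its gene. Both were hosted by XYLB, a xylulokinase gene. The farther one was 2029 bp wide, at chromosome 3, positions 38406615 to 38408643, in intron 15 of 16 of an XYLB transcript at an L1PA3 repeat. The nearer was 1927 bp wide, at positions 38414260 to 38416186, at an annotated XYLB transcript end. Across the whole set, the nearest start site belonged to another gene in 1214 of 3034 exonic regions with a known host (40.0%). For NODAL, GDF3, LEFTY1 and ACVR2A the name and the host were the same gene. In NODAL, GDF3 and ACVR2A the deposited distance led back to the start site of the gene in the RefSeq promoter table with a difference of 0 bp.

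The 4 exonic regions of the pathway genes were all in the last exon of their annotated transcript, exon 2 of 2 in GDF3, 4 of 4 in LEFTY1, 9 of 9 in ACVR1B and 11 of 11 in ACVR2B. The last exon also held 1915 of all 2819 exonic centres whose transcript had at least 2 exons (67.9%). The intronic ACVR2A region was in the last intron, as were 1036 of 4851 intronic centres (21.4%), and the NODAL region in the first, as were 1198 (24.7%). The 6 regions had a median position of 84.2% along the gene body, and the 4 exonic ones also of 84.2%. In other genes the median was 65.0% for all 6375 regions and 82.6% for the 2212 exonic ones, of which 76.4% lay in the final 50%. The placement of the exonic regions was thus near that of exonic regions in general. No other gene of the RefSeq table overlapped any of the 6 regions.

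The 8 regions taken by the rule had a median width of 1594 bp, beside a median of 1527 bp over all regions (quartiles 1070 and 2834.5 bp). Without the 2 regions in XYLB, the 6 over the gene bodies ran between 846 and 1743 bp with a median of 1243 bp, and 62.8% of all regions were, like these 6, up to 2000 bp wide. The 6 fell in 2 runs. GDF3, ACVR1B and LEFTY1 held regions of 846, 876 and 924 bp, under the lower quartile, and NODAL, ACVR2A and ACVR2B regions of 1562, 1626 and 1743 bp, just above the overall median. No region of the 6 belonged to the wide tail of the set.

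**Figure D2:**
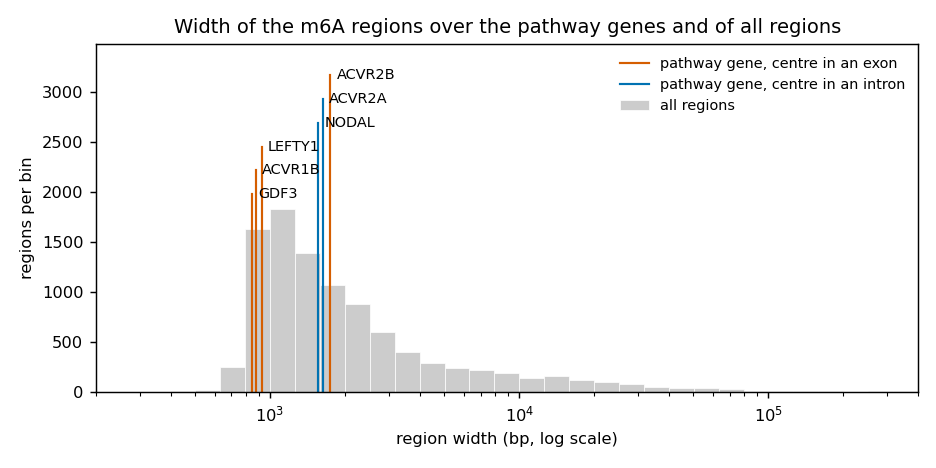
Width of the 6 m6A regions over the pathway genes (vertical lines with gene names; their heights carry no value) and the number of all 9900 regions per width bin (grey bars), on a log axis in bp. The 6 widths lie between 846 and 1743 bp, on both sides of the overall median of 1527 bp.

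Longer genes met a region more often, so each gene was set beside the 1000 protein-coding genes nearest to it in gene body length. The share of these with a region over the body was lowest for GDF3 (16.1%) and LEFTY1 (16.5%), both of which held one. It was highest for SMAD2 (48.0%), ACVR2A (43.1%) and ACVR1C (42.5%), and of these ACVR2A alone held one. NODAL, ACVR2B and ACVR1B, each with a region, had neighbours with one in 24.7, 34.5 and 35.1% of cases. FOXH1 and LEFTY2, with none, had 18.4 and 19.3%. The mean of the 10 shares was 29.8%, and 12.6% for exonic regions, both close to the shares over all protein-coding genes. The 2 longest genes and 2 of the 3 shortest held no region, and the gene bodies with a region ran between 2865 and 86306 bp.

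**Figure D3:**
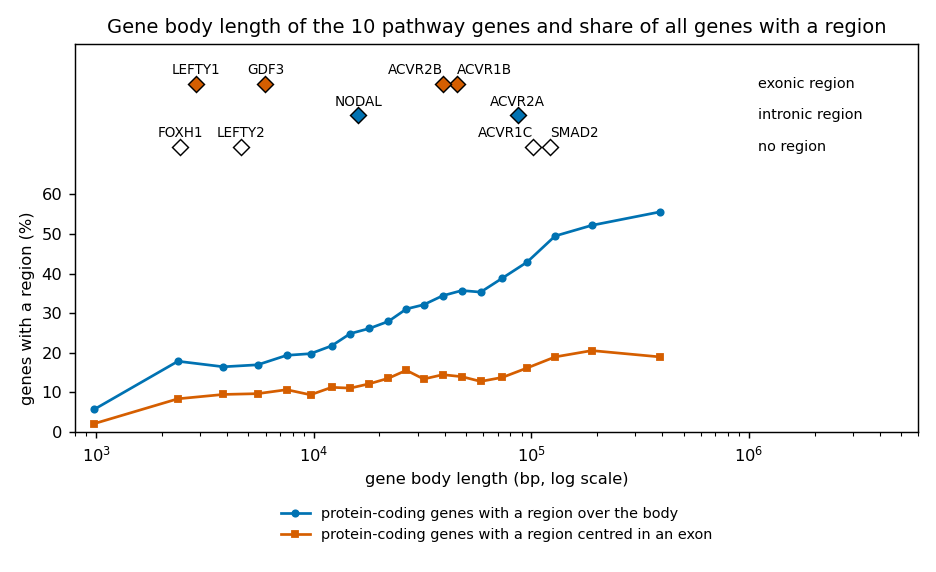
Percentage of protein-coding genes with an m6A region over the gene body (blue) or centred in an exon (orange), in 20 equal bins of gene body length (log axis, bp). Diamonds above the curves place the 10 pathway genes at their own length, in rows by kind of region; FOXH1, LEFTY2, ACVR1C and SMAD2, in the lowest row, held none.

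None of the 7 pathway genes with an entry in the RefSeq promoter table (NODAL, GDF3, ACVR1B, ACVR1C, ACVR2A, ACVR2B and SMAD2) had a region on a window of 250 bases before to 50 after an annotated start site. Of 15843 protein-coding genes with such a window, 977 had one (6.17%). FOXH1, LEFTY1 and LEFTY2 were not among the entries.

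The other genes of the pathway were counted in lists by role, 65 genes in all. Of these, 16 held an exonic region (24.6%) and 11 more held another region over the gene body, so that 41.5% held some region. Over all protein-coding genes these shares were 12.8% for an exonic region and 30.2% for any region over the gene body. Longer genes met a region more often, and these lists were not set beside genes of like length. The list of extracellular regulators (5 of 16 with some region, 31.2%) was near the share over all genes and that of target genes (2 of 13, 15.4%) below it. NANOG was among these 2, and among the 11 above, only through the 100260 bp region centred in SLC2A14. Of 17 exonic regions of these lists in transcripts of at least 2 exons, 10 were in the last exon, beside 67.9% of all such exonic centres. A further 3 were in the first exon, for which no share over all regions is given here. The share was highest among partners and regulators of SMAD2 and SMAD3, where 9 of 20 genes held an exonic region and 4 more another one. They were the corepressors SKI, SKIL and TGIF2, the receptor-complex adaptor ZFYVE9, the feedback inhibitor PMEPA1, the ubiquitin ligase SMURF1, the acetyltransferases EP300 and CREBBP and the phosphatase PPM1A. The exonic regions of SKI (exon 1 of 7), SKIL (2 of 7), ZFYVE9 (4 of 19) and PPM1A (2 of 6) were outside the last exon, and the exonic ones of TGIF2, PMEPA1, SMURF1, EP300 and CREBBP were in it. LEMD3 and the ubiquitin ligase NEDD4L met regions centred in introns. DRAP1, which in mouse limits FOXH1, and GTF2I were among the 7 of that list with none.

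In the list of extracellular regulators and other ligands, 4 of 16 genes held an exonic region, beside 12.8% of all protein-coding genes. All 4 regions were in the last exon, as were 67.9% of all exonic centres in transcripts of at least 2 exons. With 4 regions, this placement does not set these genes apart from others, and no test was made. INHBA, a subunit of activin A, held 1038 bp in exon 3 of 3, and INHBE, another inhibin beta subunit, 1269 bp in exon 2 of 2. FURIN, a protease that cleaves ligand precursors, held 1358 bp in exon 16 of 16, and BAMBI, a decoy receptor, 1163 bp in exon 3 of 3. CER1, CFC1, CFC1B and CRIPTO were among the 11 with no region. CER1 is a secreted NODAL inhibitor, and CRIPTO and CFC1 are NODAL co-receptors. CFC1 and CFC1B are near-identical copies, so their lack of a region is uncertain.

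Of the 4 receptors ACVR1B, ACVR1C, ACVR2A and ACVR2B, 3 held a region of some kind, against 3 of 9 other receptors of the family (33.3%, near the 30.2% of all protein-coding genes with a region over the body). Among genes of like length, 34.5 to 43.1% held one for these 4 receptors, and the difference between the receptor groups was not tested. BMPR2, a receptor of bone morphogenetic proteins, was the sole one of these 9 with exonic regions, in the 5' UTR of exon 1 and in exon 12 of 13. ACVR1 and TGFBR2 held intronic ones. One ACVR1 region, 1505 bp wide, was in the last of 10 introns, as in ACVR2A. ACVRL1, AMHR2 and BMPR1A were among the 6 with none. Of 7 other SMADs, the inhibitory SMAD6 held 1301 bp in exon 1 of 5 of a non-coding transcript, SMAD1, SMAD5 and SMAD7 met regions annotated to promoters (for SMAD5, that of its antisense gene), and SMAD3, SMAD4 and SMAD9 held none. SMAD3 was thus, like SMAD2, without a region. Among 13 target genes of the pathway, OTX2 alone held an exonic region (1243 bp, in exon 2 of 2 of a non-coding transcript), and DNMT3B, EOMES, FGF8 and GSC were among the 11 with none.

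**Figure D4:**
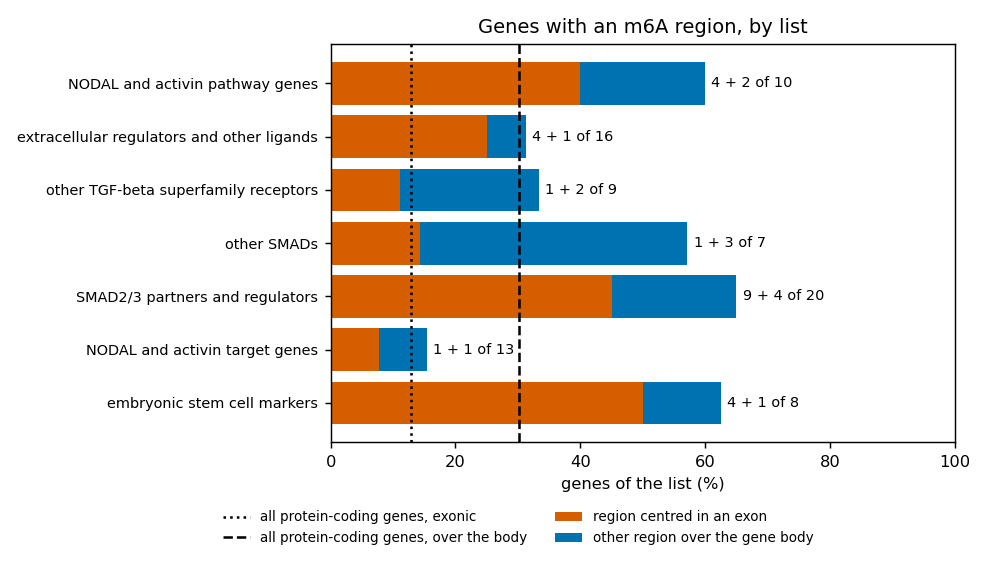
Percentage of genes with an m6A region in each list by role; orange is a region centred in an exon, blue another region over the gene body, with both counts and the list size at the end of each bar. The dotted and dashed lines mark all protein-coding genes (12.8 and 30.2%); the 10 NODAL and activin pathway genes, in the top bar, stand at 40.0 and 60.0%.

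Among the listed genes outside the 10, SMAD1, SMAD5, SMAD7, TGIF2, PMEPA1, EP300 and LEMD3 had a region that overlapped a promoter window. By the same measure, 6.17% of protein-coding genes with such a window had one. How many of the listed genes have such a window was not counted, so no share of them can be set beside this. In SMAD5, TGIF2 and LEMD3 only 4, 20 and 39 bases of the window, at its downstream end, lay in the region. In SMAD1, SMAD7, PMEPA1 and EP300 the region held a whole window, a stricter measure for which no share over all genes is given here. SMAD7 and PMEPA1 act in negative feedback on SMAD2 and SMAD3 signalling. The SMAD7 region (chromosome 18, positions 48949886 to 48951992) reached 1027 bp upstream of a start site at 48950965, and the PMEPA1 region (chromosome 20, positions 57710326 to 57711310) 733 bp upstream of a start site at 57710577. Whether the bases upstream of the start site named are transcribed was not determined here. The 250 bases before each start site, from RefSeq on GRCh38.p14 and on the minus strand, are shown as examples of sequence under a region in genes of negative feedback. Capitals mark GGAC, the core of the usual m6A motif, or GTCC, the same letters on the other strand.
SMAD7, chr18:48950966-48951215: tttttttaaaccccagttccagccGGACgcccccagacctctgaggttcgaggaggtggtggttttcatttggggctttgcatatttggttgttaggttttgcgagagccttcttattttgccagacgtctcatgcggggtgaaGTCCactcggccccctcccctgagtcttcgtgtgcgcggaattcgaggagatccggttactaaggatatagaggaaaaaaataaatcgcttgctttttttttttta
PMEPA1, chr20:57710578-57710827: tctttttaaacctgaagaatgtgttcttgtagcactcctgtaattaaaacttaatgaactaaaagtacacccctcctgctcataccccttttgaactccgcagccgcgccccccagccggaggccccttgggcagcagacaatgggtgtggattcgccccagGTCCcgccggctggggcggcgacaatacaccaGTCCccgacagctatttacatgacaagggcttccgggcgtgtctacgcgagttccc
Each stretch held the letters 2 times, counting both strands. On the strand shown these were GGAC and GTCC in SMAD7, and GTCC alone in PMEPA1. Of 22199 such stretches of protein-coding genes, 85.1% held them at least once, so a match is common and marks no site. The sequences of the 6 regions over NODAL, GDF3, LEFTY1, ACVR1B, ACVR2A and ACVR2B were not analysed here.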

How the data were processed

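Per the labels, m6A pull-down and input libraries were made of total RNA of H1 cells, 2 of each. Whether replicates were separate cultures is not said. The submitters' processing notes name hg38 and, as tools, HOMER, bedtools 2.30.0, MACS2 2.2.7.1, SAMtools 1.6, HISAT2 2.2.1 and Trim Galore 0.6.7. Their settings and what was intersected are not stated. The authors deposited region positions and, in an annotation, distances of each centre to the nearest start site, both in base pairs; other values, such as a count or a height, were not used, and the 9900 positions were equal in both files.

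Host genes came from matching the annotated transcript to a RefSeq gene table (GRCh38.p14), strands from the RefSeq promoter table or, for LEFTY1, from the start site the annotation implies. Overlap meant at least 1 base. Exonic meant a centre that HOMER placed in coding sequence, a UTR or the exon of a non-coding transcript. All listed symbols matched. Assignment was first checked on simulated positions. Counts, medians and Clopper-Pearson intervals were computed in Python 3.11.15 with SciPy 1.17.1.

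The 10 genes and the lists were chosen with earlier results of these data known, so no test was made. All 10 genes were named, and of each list every gene with an exonic region and up to 4 without one, in alphabetical order. Beyond that, TGFBR2, SMAD7, SMAD9, and the genes next to regions were chosen after their values were seen.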

Additional observations from a re-analysis of the deposited data

How the results depend on the processing

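Of 33 alternative counts and medians, 29 were within 1.5 times the value under the full rule, which for the median width is the 1594 bp of 8 regions (1243 bp for the 6 over gene bodies). They took genes by annotated transcript, nearest start site, any overlap or at least 50% of the region inside the gene, limited region width, merged regions within 1000 bp, or changed what counted as exonic. Under regions of at least 1000 bp alone, 3 of the 10 genes held a region in place of 6, and 5 regions were assigned in place of 8. Only 1 gene (ACVR2B) then held an exonic region, in place of 4. The GDF3, ACVR1B and LEFTY1 regions are narrower than that limit. No share over all protein-coding genes was computed under it. The 40.0% of the 10 genes with an exonic region, beside 12.8% of all, is thus not shown to hold there. With any overlap of the gene body counted, 27 of the 65 other pathway genes held a region, in place of 16 with an exonic one. With 1 intersected set, leaving out a replicate was not possible. No paired analysis was possible because the deposited set holds no value per library. RNA level and read depth, on which the finding of a region may depend, were not in these files.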
